A study of Mus musculus with 4 samples.

Results

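The small leucine-rich proteoglycans are secreted matrix proteins built from a run of leucine-rich repeats, and 10 of their genes were followed here in cultured mouse inner ear cells: Dcn, Bgn, Aspn, Fmod, Lum, Prelp, Omd, Epyc, Ogn and Chad. They were taken by gene symbol from the 24346 symbols of each deposited table, and all 10 were present. RNA sequencing compared primary cultures of vestibular cells (2 libraries) with primary cultures of cochlear cells (2 libraries). Primary cultures are cells grown directly from tissue, here the mouse inner ear, whose vestibular part senses head movement and gravity and whose cochlea senses sound. Strain, age, culture time and any treatment are not given in the labels, and nothing there says whether the libraries of a group came from separate animals or cultures. The p-values therefore measure only the spread between these libraries, which may be technical.

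Most members of the family bind collagen fibrils through the curved face of their repeats and set the width and spacing of the fibrils. Decorin, biglycan and asporin form class I, fibromodulin, lumican, PRELP and osteomodulin class II, epiphycan and osteoglycin class III, and chondroadherin class IV. Decorin and biglycan carry chondroitin or dermatan sulfate chains and several class II proteins can carry keratan sulfate, while others of the family often occur without chains. Several of them also bind TGF-beta or bone morphogenetic proteins in the matrix. Epiphycan was first described in growth cartilage, and in the mouse cochlea it is known from supporting cells, where its loss impairs hearing.

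Epyc stood apart from the rest of the family. It was measured at 391 and 747 FPKM (fragments scaled by transcript length and by library size) in libraries 1 and 2 of the cochlear pair, and at 1.11 and 25.2 FPKM in libraries 1 and 2 of the vestibular pair. Pairs of values below keep this order of libraries. The other 9 members had higher means in the vestibular cultures, the direction of 51.4% of all genes tested. The vestibular pair lay wholly above the cochlear pair for Dcn, Bgn, Fmod and Omd, and wholly below it for Epyc. The libraries of the groups overlapped for Aspn, Lum, Prelp, Ogn and Chad.

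Groups were compared with limma, a linear model that shares the spread across genes, on log2(FPKM + 1) over the 13200 genes with a mean of at least 1 FPKM. All 10 members passed this filter, Chad only through vestibular library 2. No member passed the Benjamini-Hochberg adjusted threshold of 0.05 over all genes tested (0 of 10, adjusted p from 0.176 to 0.735), where 4 of 13200 genes (0.0303%) passed, all higher in cochlear cultures, and with 1 library removed, whichever it was, 0 passed. At an unadjusted p under 0.05, limma gave 3 of the 10 members, against 18.2% of genes tested. Of these, 2 (Bgn and Fmod) were higher in vestibular cultures, against 7.61%, and 1 (Epyc) was higher in cochlear cultures, against 10.6%. This count was 5 without vestibular library 1 (20.6% of genes tested) and 0 without cochlear library 2 (7.71%). A 2-sided exact permutation test over 2 libraries against 2 cannot give a p under 0.333. The groups did not overlap for 5 of the 10 members, against 55.3% of genes tested: 4 with vestibular cultures higher and 1 with cochlear cultures higher, against 26.9% and 28.4%. Leaving out a library makes separation easier: without vestibular library 1 the counts were 7 and 1 (40.2% and 40.3% of genes tested), and without cochlear library 1 they were 8 and 1 (38.6% and 39.1%). The median log2 difference, vestibular minus cochlear, was 1.39 over the members and 0.01 over all genes tested. This median and the count of 9 members with higher vestibular means include Chad, which passed the filter through a vestibular library. Without Chad the middle difference was that of Bgn, 0.97. These are bulk libraries, so fewer cells of a type and less RNA per cell cannot be told apart.

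**Figure D1:**
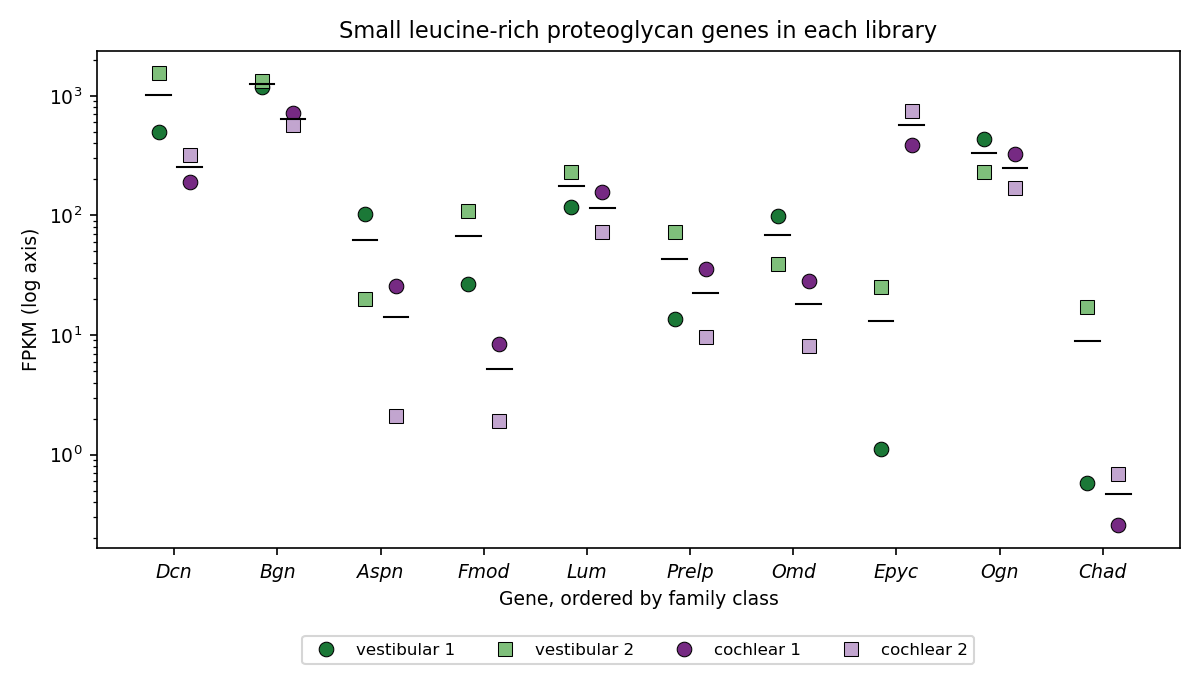
FPKM of the 10 genes in each library on a log axis, with points for libraries (circles library 1, squares library 2) and short lines for group means. Epyc is the gene whose cochlear libraries (391 and 747 FPKM) lie above both vestibular libraries (1.11 and 25.2 FPKM).

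The libraries differed in more than this family. FPKM totals ran from 479380 to 519122, and 12644 to 13094 genes reached 1 FPKM. The summed FPKM of 16 epithelial markers was 1216 and 113 in the vestibular pair and 2170 and 2661 in the cochlear pair, so the sum was lowest in vestibular library 2. Cdh1 alone of that list was not lower in vestibular 2 (33.9 FPKM) than in vestibular 1 (32.2). The sum of 12 macrophage markers was 8388 and 6426 in the vestibular pair and 6474 and 29.2 in the cochlear pair, the last value being that of cochlear 2. The sum of 13 cartilage markers was 4971 in vestibular 2 and between 583 and 1124 in the others. Of 10 hair cell markers, 2 (Myo7a and Espn) reached a mean of 1 FPKM, so hair cell RNA was scarce under both labels.

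The family's summed level was 2478 and 3616 FPKM in the vestibular pair and 1887 and 1903 in the cochlear pair. The vestibular sums were both above the cochlear ones. As a share of all FPKM this was 0.591% ± 0.161 in the vestibular pair and 0.381% ± 0.0223 in the cochlear pair (SD, n = 2 each). Without Epyc the sums were 2476 and 3591 against 1496 and 1157 FPKM. Epyc made up 20.7% and 39.2% of the family's sum in the cochlear libraries, and 0.0446% and 0.698% in the vestibular libraries. Bgn was the largest part in vestibular 1 and cochlear 1 (47.9% and 38.2%), Dcn in vestibular 2 (42.6%) and Epyc in cochlear 2.

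**Figure D2:**
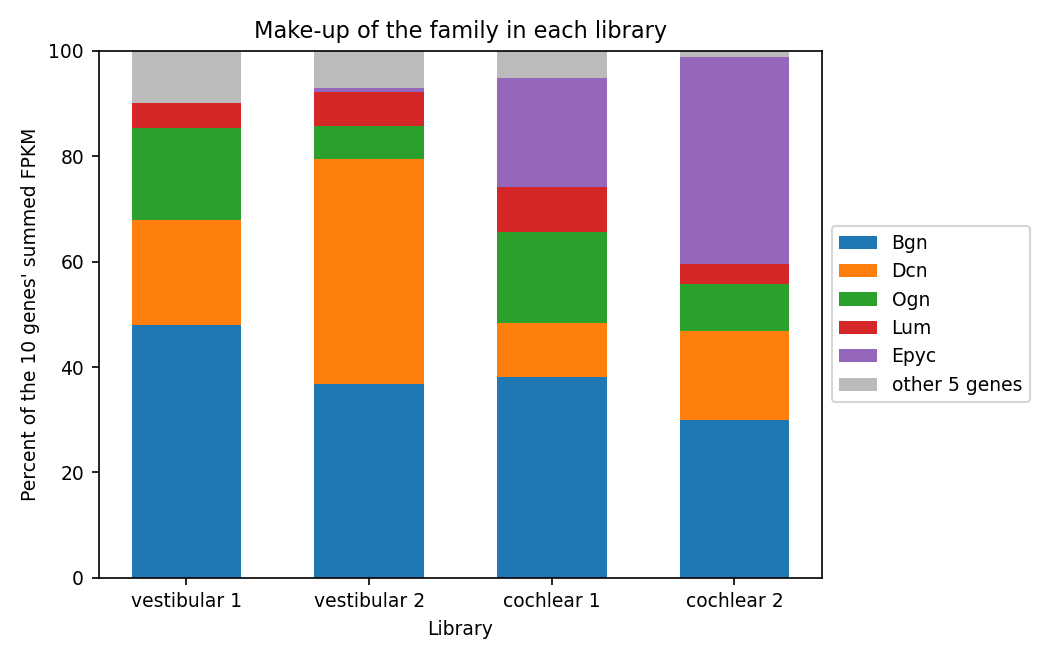
Share of the 10 genes' summed FPKM held by Bgn, Dcn, Ogn, Lum, Epyc and the other 5 genes in each library, as stacked bars that start at 0. The Epyc part is 20.7% and 39.2% in the cochlear libraries and under 1% in the vestibular ones.

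Among the class I genes, Bgn encodes biglycan, a proteoglycan of bone and other connective tissue that usually carries a pair of chains. It stood at 1187 and 1329 FPKM in the vestibular pair (libraries 1 and 2, in that order) and at 721 and 572 in the cochlear pair. Its vestibular libraries lay close together, and the lower of them was 1.65 times the higher cochlear one. The log2 difference was 0.97 (SE 0.20, 95% interval 0.41 to 1.53, limma adjusted p 0.176). Bgn had the smallest standard error of the 10 members and was the highest or second highest of them in every library.

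Dcn encodes decorin, the class I proteoglycan that binds type I collagen and TGF-beta. It had 494 and 1542 FPKM in the vestibular pair and 192 and 321 in the cochlear pair. The groups did not overlap, but the vestibular libraries differed 3.12-fold between themselves. Its log2 difference was 1.81 (SE 0.67, 95% interval -0.11 to 3.73, limma adjusted p 0.287), and 0.99 without vestibular library 2.

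Aspn encodes asporin, a class I protein with an N-terminal run of aspartate that binds collagen and TGF-beta. It stood at 104 and 19.8 FPKM in the vestibular pair and 25.9 and 2.12 in the cochlear pair. Vestibular 2 lay below cochlear 1, so the groups overlapped. The log2 difference of 2.35 had a 95% interval from -1.74 to 6.44 (limma adjusted p 0.445), and it was 0.79 without cochlear library 2 and 1.18 without vestibular library 1.

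In class II, Fmod had the largest difference in the vestibular direction. It encodes fibromodulin, a keratan sulfate proteoglycan of tendon and cartilage that regulates collagen fibril growth and cross-linking. It was measured at 26.8 and 109 FPKM in the vestibular pair and 8.39 and 1.91 in the cochlear pair. The lower vestibular library was 3.20 times the higher cochlear library, although libraries within each group differed about as much (4.06-fold and 4.404-fold). The log2 difference was 3.40 (SE 0.96, 95% interval 0.65 to 6.16, limma adjusted p 0.230), and 97 of the 13200 genes had a difference at least as large in either direction, Fmod included.

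Omd encodes osteomodulin, a class II protein of mineralized tissue that binds hydroxyapatite. It had 98.7 and 39.5 FPKM in the vestibular pair and 28.4 and 8.12 in the cochlear pair. The groups did not overlap, with the nearest libraries 1.39-fold apart. Its log2 difference was 1.96 (95% interval -0.29 to 4.21, limma adjusted p 0.309), and 1.12 without cochlear library 2.

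Lum encodes lumican, best known for its part in corneal transparency. It stood at 117 and 233 FPKM in the vestibular pair and 158 and 72.1 in the cochlear pair, so cochlear 1 lay between the vestibular libraries. The log2 difference was 0.62 (95% interval -0.97 to 2.22, limma adjusted p 0.573), and it was 0.13 without vestibular 2 and 0.06 without cochlear 2. Prelp encodes a class II protein with a basic N-terminal region that binds heparan sulfate. It had 13.6 and 72.3 FPKM in the vestibular pair and 35.3 and 9.65 in the cochlear pair, with each group spanning part of the other. Its log2 difference of 0.73 (95% interval -2.35 to 3.82, limma adjusted p 0.735) turned to -0.43 without vestibular 2 and to -0.15 without cochlear 2.

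Within the class II set the make-up also differed. Fmod over Prelp, a ratio of levels within a library that no rescaling of libraries can move, was 1.97 and 1.51 in the vestibular pair and 0.238 and 0.198 in the cochlear pair. Fmod over Lum was 0.229 and 0.468 against 0.0530 and 0.0264. Both ratios separated the groups, and with 2 libraries each no permutation test can go below 0.333. These pairs were chosen after their values were seen.

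The class III genes differed in pattern. Epyc, the epiphycan gene, ranked 186th and 76th by FPKM among the 24346 symbols in cochlear libraries 1 and 2, and 12944th and 3532nd in vestibular libraries 1 and 2. Group means were 569 ± 252 FPKM in the cochlear pair and 13.2 ± 17.1 in the vestibular pair (SD, n = 2 each), a 43.2-fold ratio. The lower cochlear library was 15.5 times the higher vestibular library, and the vestibular libraries differed 22.8-fold between themselves. The log2 difference was -6.19 (SE 1.38, 95% interval -10.14 to -2.23), and 4 of the 13200 genes, Epyc included, had one at least as large in either direction. Its unadjusted limma p was 0.0131 and its adjusted p 0.189. Leaving out a library gave -4.37 without vestibular 1 and -8.01 without vestibular 2, and adjusted p from 0.127 to 0.654 over those 4 fits.

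Ogn encodes osteoglycin, also called mimecan, a class III protein of bone and other connective tissue. It stood at 434 and 229 FPKM in the vestibular pair and 328 and 169 in the cochlear pair. The groups interleaved, and library 1 was about as far above library 2 in each group (1.89-fold in vestibular and 1.93-fold in cochlear cultures). The log2 difference was 0.42 (95% interval -1.001 to 1.84, limma adjusted p 0.670), and it was -0.04 without vestibular 1 and -0.05 without cochlear 2. Epyc over Ogn was 0.00255 and 0.110 in the vestibular pair and 1.19 and 4.41 in the cochlear pair, so Epyc exceeded its class partner in the cochlear libraries and lay under it in both vestibular ones.

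Chad encodes chondroadherin, a class IV cartilage protein that binds type II collagen and integrins. It was measured at 17.3 FPKM in vestibular library 2, at 0.580 in vestibular 1, and at 0.255 and 0.687 in the cochlear pair. Vestibular library 2 was the only library where Chad reached 1 FPKM. That library had the highest cartilage marker sum, and also the highest otic fibrocyte (3732 FPKM), meningeal (3521) and melanocyte (235) sums. A link of Chad to any of these was not tested. The log2 difference of Chad, 1.88 (95% interval -1.89 to 5.66, limma adjusted p 0.492), was 0.12 without that library.

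**Figure D3:**
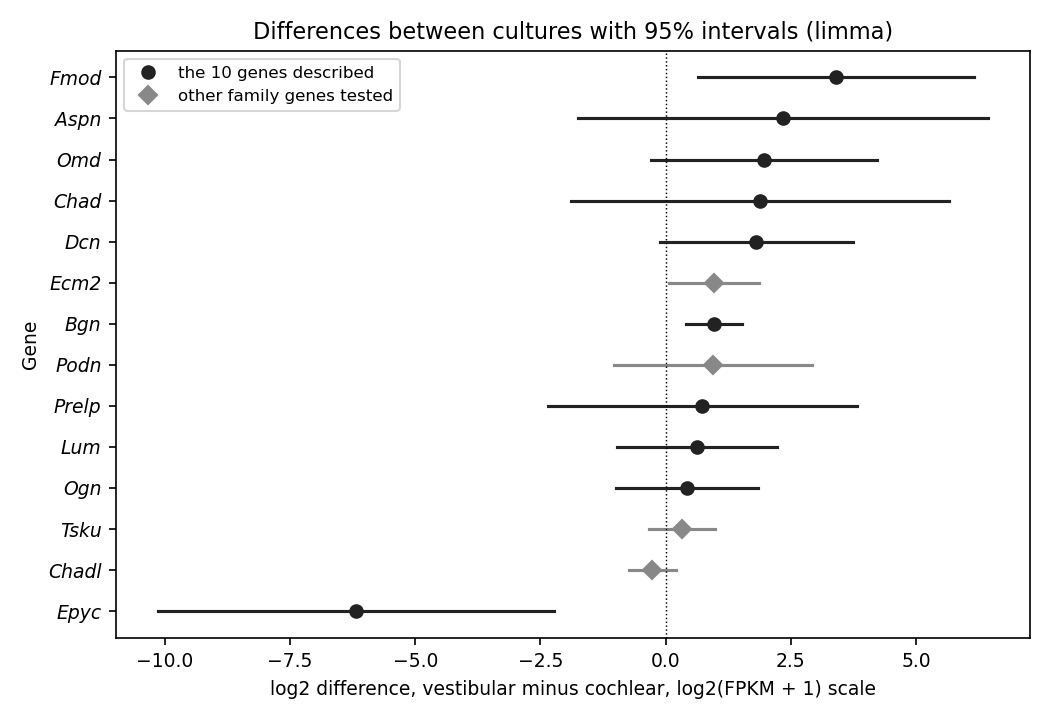
Log2 difference, vestibular minus cochlear, with its 95% interval from limma for the 10 genes (circles) and for the 4 other family genes tested (diamonds). Epyc lies at -6.19 on the cochlear side, and the intervals of Epyc, Fmod and Bgn among the 10 do not cross 0, without adjustment for the number of genes tested.

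The other 8 genes of the family in mouse reached at most 40.9 FPKM. Podn, the podocan gene, had 40.9 and 12.8 FPKM in the vestibular pair and 16.4 and 8.02 in the cochlear pair. Tsku, which encodes the signalling modulator tsukushi, had 12.3 and 8.55 against 8.82 and 7.17. Both overlapped between groups. Ecm2 had 4.33 and 6.59 against 2.94 and 1.68 FPKM (log2 difference 0.97, limma adjusted p 0.256), with the vestibular libraries higher. Chadl, the chondroadherin-like gene, had 6.001 and 5.07 against 7.46 and 6.25 FPKM, and 1023 of its exon bases overlap L3mbtl2 of the other strand. Optc, Nyx and Podnl1 stayed under 1 FPKM in every library. Kera, the keratocan gene of cornea, was listed at 0 in 3 libraries and at 0.155 FPKM in cochlear library 2.

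Most of these genes lie in blocks on the genome. On mm10, with gene models of GENCODE release M21 on GRCm38, Dcn (97479609 to 97518143), Lum (97565128 to 97572703), Kera (97606879 to 97613692) and Epyc (97644068 to 97682454) follow each other on the plus strand of chromosome 10 within 203 kb. Dcn and Epyc, at the ends of this block, had log2 differences of 1.81 and -6.19, and Lum between them 0.62. Epyc over Dcn was 0.00224 and 0.0164 in the vestibular pair and 2.04 and 2.32 in the cochlear pair, so the order of these levels was opposite in the groups. On chromosome 13, Ecm2, Aspn (49544443 to 49567565), Omd (49582462 to 49592822) and Ogn (49608046 to 49624501) lie on the plus strand within 120 kb, inside the span of Cenpp, a centromere protein gene of the other strand. All 4 had differences in the vestibular direction, from 0.42 to 2.35. Prelp (133910304 to 133921414, minus strand) and Fmod (134037254 to 134048277, plus strand) lie on chromosome 1, Bgn (73483602 to 73495933) on chromosome X and Chad (94565047 to 94569127) on chromosome 11, both on the plus strand.

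**Figure D4:**
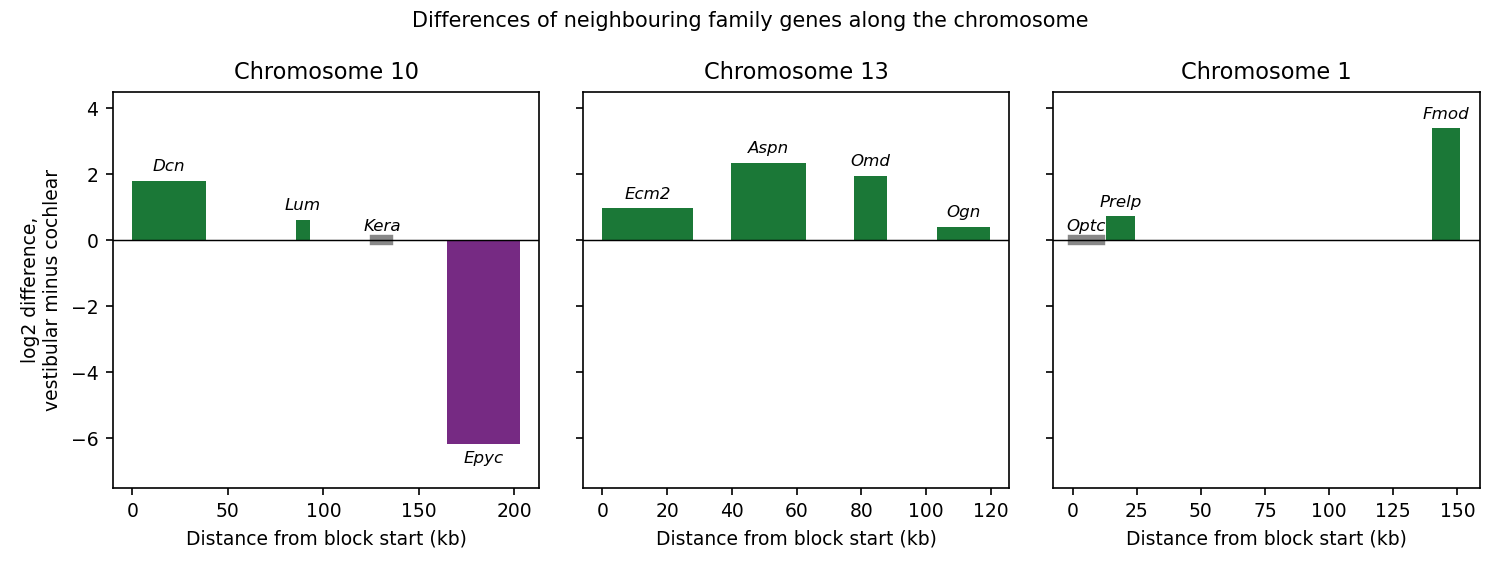
Log2 difference, vestibular minus cochlear, of neighbouring family genes on chromosomes 10, 13 and 1, against distance from the start of the first gene of each block in kb. Bar width is the gene's span, and grey marks are genes not tested (Kera and Optc). Epyc alone points to the cochlear side, at -6.19.

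Within groups, Aspn, Omd and Ogn shared another pattern. Library 1 lay above library 2 in both groups for these 3 neighbours and for no other member, and 26.3% of the genes tested did the same. Ecm2, beside them, had library 1 above library 2 in the cochlear pair (2.94 and 1.68 FPKM). In the vestibular pair it did not (4.33 and 6.59). The relatives Podn, Tsku and Chadl, on other chromosomes, shared the pattern in both groups. A link of the pattern to the block was not tested. The ratio of library 1 to library 2 was 5.22 and 12.2 for Aspn, 2.50 and 3.49 for Omd and 1.89 and 1.93 for Ogn, in vestibular and cochlear cultures. Dcn, Epyc and Chad had library 2 above library 1 in both groups, as did 26.4% of the genes tested. Both counts are 3 of 10, near the share over all genes.

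Of the 10 genes, Epyc shares the most exon sequence with another annotated gene. In GENCODE M21, 1041 of its 2561 exon bases overlap Gm10754, a long noncoding RNA gene of the other strand. Gm10754 had a listed 0 and 1.19 FPKM in the vestibular pair and 31.5 and 67.2 in the cochlear pair, an order of libraries that matches that of Epyc. Epyc over Gm10754 was 21.2 in vestibular 2 and 12.4 and 11.1 in the cochlear libraries. The library kit keeps strand, but the strand setting used in counting is not given, so fragments of these genes may be shared and their separate levels are uncertain. Prelp overlaps the antisense gene Gm15851 in 350 exon bases and Aspn overlaps Cenpp in 7. Cenpp stood at 1.11 and 1.002 FPKM in the vestibular pair and 2.07 and 2.13 in the cochlear pair.

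The sequences before the transcription starts are shown for Epyc, which has 2 starts, for its class partner Ogn, and for Fmod and Bgn, the members with the largest and the most even difference in the vestibular direction. Each is the 250 bases before a RefSeq start on GRCm38.p6, 5′ to 3′ on the gene's strand, which is the plus strand for all 5. RefSeq windows were matched for 8 of the 10 genes (9 windows), and Dcn and Lum were not among them. Capitals mark matches on either strand to AACAAT (reverse ATTGTT), a core bound by SOX factors, or to TATAAA (reverse TTTATA), the TATA box.
Epyc, first start, chr10:97643818-97644067: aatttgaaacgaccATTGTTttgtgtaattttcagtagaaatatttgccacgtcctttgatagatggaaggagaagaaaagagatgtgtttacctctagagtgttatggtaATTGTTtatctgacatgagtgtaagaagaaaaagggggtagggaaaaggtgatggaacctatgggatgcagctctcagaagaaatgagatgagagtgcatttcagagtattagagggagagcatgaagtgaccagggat
Epyc, second start, chr10:97646853-97647102: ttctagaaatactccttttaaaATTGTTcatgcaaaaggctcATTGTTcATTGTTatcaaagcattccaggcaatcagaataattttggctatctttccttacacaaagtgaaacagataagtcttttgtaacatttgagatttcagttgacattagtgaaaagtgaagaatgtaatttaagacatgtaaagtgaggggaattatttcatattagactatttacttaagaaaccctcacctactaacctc
Ogn, chr13:49607765-49608014: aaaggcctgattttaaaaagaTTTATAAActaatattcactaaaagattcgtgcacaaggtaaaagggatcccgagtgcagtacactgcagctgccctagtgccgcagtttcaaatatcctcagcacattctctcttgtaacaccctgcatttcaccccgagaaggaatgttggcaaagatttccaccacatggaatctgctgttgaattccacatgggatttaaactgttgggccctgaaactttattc
Fmod, chr1:134037004-134037253: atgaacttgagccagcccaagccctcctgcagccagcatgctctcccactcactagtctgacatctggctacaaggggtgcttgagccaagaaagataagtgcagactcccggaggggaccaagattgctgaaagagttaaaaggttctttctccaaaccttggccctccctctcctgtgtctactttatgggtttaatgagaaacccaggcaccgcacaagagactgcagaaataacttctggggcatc
Bgn, chrX:73483351-73483600: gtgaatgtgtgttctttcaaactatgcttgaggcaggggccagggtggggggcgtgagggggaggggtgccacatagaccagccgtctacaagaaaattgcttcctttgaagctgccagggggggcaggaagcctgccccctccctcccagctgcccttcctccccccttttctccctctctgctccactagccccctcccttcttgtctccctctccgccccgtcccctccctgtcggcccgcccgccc

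Both Epyc windows held the SOX core, with 2 matches before the first start and 3 before the second. It was found in 4 of the 9 windows of the family (both of Epyc, Aspn and Prelp) and in 9.42% of all 32851 RefSeq windows of this length. The TATA box letters were found in 3 of the 9 (Aspn, Ogn and Chad) and in 12.4% of all windows. In Ogn 2 TATA matches on opposite strands overlap each other. TGANTCA, the AP-1 motif, was found in 0 of the 9 and in 6.75% of all windows. The motifs were chosen with the sequences in view, and a match is a string of letters, not a measured site. GC content was 39.2% and 31.2% in the Epyc windows, 42.0% in Ogn, 51.2% in Fmod and 64.4% in Bgn.

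Of the collagens that these proteoglycans bind, 14 of 14 tested were higher in vestibular cultures, and 12 of the 14 did not overlap between groups, against 26.9% of all genes in this direction. Their median log2 difference was 1.47, and 0 passed the adjusted threshold. Col1a2, a type I collagen chain, stood at 1140 and 3452 FPKM in the vestibular pair and 492 and 218 in the cochlear pair. Col3a1 had 473 and 624 against 291 and 134. The cartilage chain Col2a1 had 543 and 2365 against 83.9 and 38.5, and Col11a1 had 96.6 and 546 against 49.5 and 81.6. Col1a2, Col2a1, Dcn and Bgn were all highest in vestibular library 2, although Bgn differed only 1.12-fold between the vestibular libraries. Other collagens ran the other way within the vestibular pair. Col1a1, the partner chain of Col1a2, had 371 and 134 FPKM there, and Col5a1, Col5a3, Col6a1, Col6a2 and Col6a3 also had vestibular 1 above vestibular 2.

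Enzymes that build the sugar chains were counted by chain type. The chondroitin and dermatan sulfate set had 11 of 13 members higher in vestibular cultures (7 not overlapping in that direction and 0 in the other, against 26.9% and 28.4% of all genes, median 0.57). Chpf, a chondroitin polymerizing factor, had 74.2 and 91.0 against 35.6 and 31.8 FPKM, and Chpf2, its relative, 40.0 and 52.6 against 27.9 and 24.1. Dse, which makes dermatan from chondroitin, overlapped between groups at 32.3 and 36.0 against 40.9 and 31.4. The keratan sulfate set had 5 of 8 higher in cochlear cultures (1 of 8 not overlapping each way, under the 26.9% and 28.4% of all genes, median -0.06). Its galactosyltransferase gene B4galt4 stood at 22.0 and 12.7 in the vestibular pair and 63.8 and 87.6 FPKM in the cochlear pair (log2 difference -2.10, limma adjusted p 0.135).

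Steps shared by all chains were counted as well. Linkage enzymes had 2 of 7 higher in vestibular cultures (median -0.06), with the xylose kinase gene Fam20b at 27.1 and 29.6 against 34.9 and 37.0 FPKM. Sulfate supply genes had 4 of 6 higher in vestibular cultures (median 0.11). The sulfate transporter gene Slc26a2 ran the other way, at 7.65 and 8.84 against 15.05 and 16.8 FPKM, as did Papss1, which makes activated sulfate, at 34.9 and 33.4 against 46.7 and 53.9. No member of these 4 enzyme sets passed the adjusted limma threshold (smallest adjusted p 0.111).

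Proteases that process the family were higher in vestibular cultures in 9 of 10 tested (5 not overlapping, against 26.9% of all genes, median 0.66). Mmp2, a gelatinase that can cut decorin, had 476 and 461 against 201 and 204 FPKM, with close replicates and a limma adjusted p of 0.0914. Bmp1, the proteinase that removes the biglycan propeptide, had 64.7 and 74.6 against 43.4 and 46.9. Tll2, related to Bmp1, was listed at 0 in all 4 libraries. Receptors reported to bind these proteins had 10 of 14 higher in vestibular cultures (4 of 14 not overlapping each way, about the 26.9% and 28.4% of all genes, median 0.17). Lrp1, an endocytic receptor for decorin, had 259 and 257 against 168 and 115 FPKM, and the integrin gene Itgb1 overlapped between groups at 276 and 339 against 327 and 272.

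TGF-beta ligands and receptors had 4 of 6 higher in vestibular cultures (median 0.37). Tgfb1 stood at 42.5 and 36.0 against 30.1 and 11.8 FPKM and the receptor gene Tgfbr2 at 81.3 and 87.7 against 62.4 and 42.0. Tgfb2 was higher in cochlear cultures, at 28.6 and 38.8 against 10.3 and 14.1 in vestibular cultures (log2 difference -1.40, limma adjusted p 0.149). Tgfb3 overlapped between groups, at 38.8 and 22.5 against 28.8 and 32.1.

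Markers of the cell types that could supply these transcripts differed with the groups and with single libraries. Fibroblast markers summed to 5502 and 7202 FPKM in the vestibular pair and 3446 and 2216 in the cochlear pair, with 14 of 14 tested higher in vestibular cultures, the same direction as Dcn, Bgn, Fmod and Omd. This list shares Col1a1, Col1a2 and Col3a1 with the collagen list above, and the cartilage list shares Col2a1, Col11a1 and Col11a2 with it. These counts are therefore not separate. Tendon markers had 2 of 3 higher in vestibular cultures. Tnmd, the tenomodulin gene, had 30.7 and 145 against 1.90 and 0.242 FPKM, while Scx, the scleraxis gene of tendon progenitors, overlapped between groups at 35.2 and 7.10 against 18.1 and 45.6. Bone markers were split, with 4 of 6 higher in vestibular cultures but a larger sum in cochlear ones (4291 and 2721 against 5416 and 4571 FPKM). Most of that sum was Spp1, the osteopontin gene, at 4095 and 2598 against 5377 and 4459. Alpl, an alkaline phosphatase gene, was also higher in cochlear cultures, at 4.20 and 3.05 against 11.4 and 91.7, and Dmp1, an osteocyte matrix gene, in vestibular ones, at 171 and 80.6 against 15.01 and 15.02. Of the markers of otic mesenchyme and fibrocytes, 9 of 10 were higher in vestibular cultures, and the list sum was 3732 FPKM in vestibular 2 and 839 to 870 in the other libraries. Meningeal markers had 5 of 6, pericyte markers 4 of 5, cartilage markers 7 of 9 and macrophage markers 12 of 12 higher in vestibular cultures, the last with cochlear 1 at a sum between those of the vestibular libraries. Slc22a6 of the meningeal list and Cldn5 of the endothelial list were listed at 0 in all libraries. The part of these cell types in the members' differences was not tested.

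Across the 4 libraries Epyc was set beside the marker lists. Epithelial markers had 14 of 14 tested higher in cochlear cultures, 12 not overlapping, against 28.4% of all genes in this direction. Krt8, a keratin gene of simple epithelia, had 297 and 10.5 FPKM in the vestibular pair and 663 and 687 in the cochlear pair. Epyc over Krt8 was 0.00373 and 2.40 in the vestibular pair and 0.589 and 1.09 in the cochlear pair, so vestibular 1 kept Krt8 with little Epyc while vestibular 2 held more Epyc than Krt8. Supporting cell markers had 7 of 11 higher in vestibular cultures, and summed to 111 and 344 FPKM in the vestibular pair and 186 and 266 in the cochlear pair. Most of the sum in vestibular 2 was Gjb2, and Sox2, Tecta, Tectb and Prox1 of that list were too low to be tested. Otoa, which encodes otoancorin at the apical surface of supporting cells, stood at 9.40 and 3.61 against 29.0 and 129 FPKM, and Gjb2, a connexin gene, at 19.9 and 231 against 77.7 and 74.5. Of the cartilage list, the collagen gene Col2a1 was lowest in cochlear 2, where Epyc was highest, while Lect1, the chondromodulin gene, was highest there (853 FPKM). The sum of that list was 938 and 4971 FPKM in the vestibular pair and 583 and 1124 in the cochlear pair. The macrophage markers summed to 6474 and 29.2 FPKM in cochlear libraries 1 and 2, where Epyc stood at 391 and 747. The cell source of Epyc was not tested.

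Of the cell type lists, the endothelial sum alone put the libraries in the same order as Epyc, from 22.6 and 49.1 FPKM in the vestibular pair to 117 and 297 in the cochlear pair. Most of it was Emcn, the endomucin gene, at 14.5 and 34.3 against 112 and 287, while Cldn5 was listed at 0 and Pecam1 and Tie1 stayed under 1 FPKM in every library. Endothelial markers had 2 of 4 tested higher in each group. The match in order was singled out from all cell type lists after their sums were seen. Schwann cell markers had 3 of 5 and melanocyte markers 6 of 7 higher in vestibular cultures. Of the melanocyte markers, Dct, Mlana, Pmel, Tyr and Tyrp1 passed the filter of a mean of 1 FPKM only through vestibular 2. Their direction therefore rests on that library and is no separate result. The 2 hair cell markers tested, Myo7a and Espn, were split 1 and 1. Among those too low to be tested, Otof, Pou4f3, Myo15, Tmc1 and Strc had the vestibular pair wholly above the cochlear pair. Cdh23 did the reverse, and Slc17a8 and Atoh1 overlapped. All of these lay near the floor, with Otof the highest by mean, at 0.860 and 1.63 against 0.215 and 0 FPKM. How often other genes this low separate the groups was not counted, so no difference in hair cell RNA is read from them. The sums were 180 to 245 FPKM for Schwann cell and 18.1 to 23.9 for hair cell lists. The melanocyte sum was 235 FPKM in vestibular 2, 15.9 in vestibular 1, and 17.4 and 12.1 in the cochlear pair. Dct, a pigment synthesis gene, made up most of it in vestibular 2, at 166 FPKM.

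**Figure D5:**
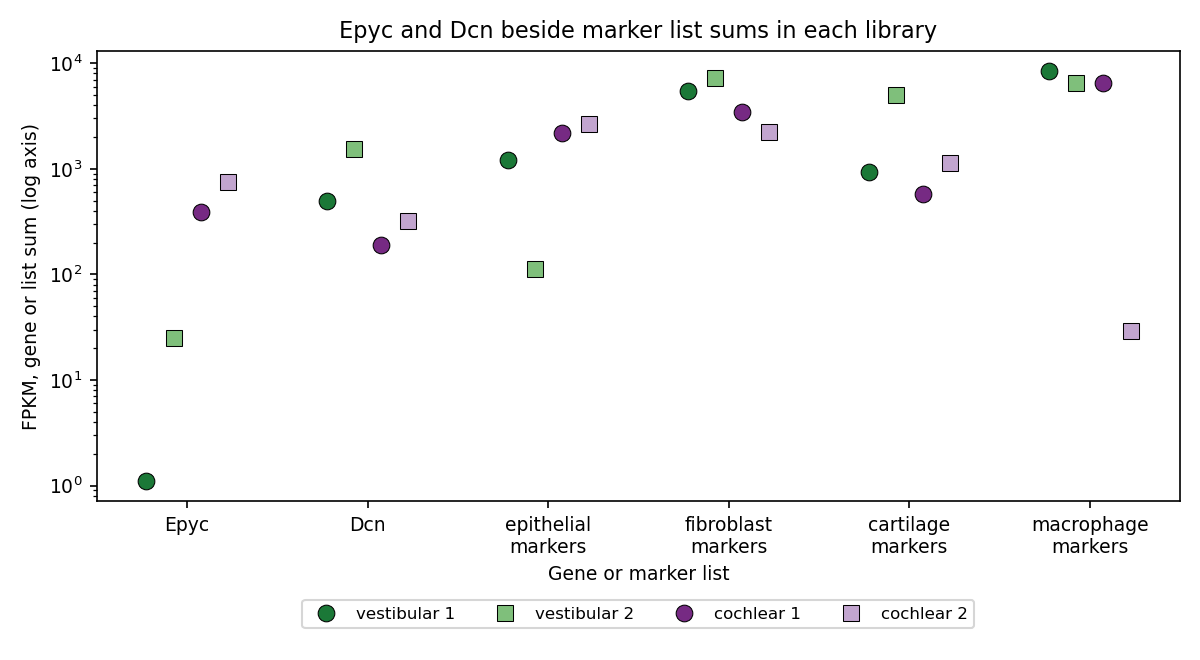
FPKM of Epyc and Dcn and summed FPKM of 4 marker lists in each library, on a log axis (circles library 1, squares library 2). Epithelial markers are low in vestibular 2 (113), cartilage markers high in vestibular 2 (4971) and macrophage markers near absent in cochlear 2 (29.2).

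Among 9208 protein-coding genes with a mean of at least 5 FPKM, likeness to Epyc was measured as the root mean square distance between log2(FPKM + 1) profiles over the 4 libraries, each centred on its own mean. The nearest were Prss36 and Tmprss3, which encode serine proteases (distances 1.32 and 1.42), the retinol dehydrogenase gene Sdr16c5 (1.42), the transcription factor gene Gata3 (1.62) and the water channel gene Aqp5 (1.71), against a median of 3.37 over all genes compared. Gata3 had 1.53 and 5.70 FPKM in the vestibular pair and 49.999 and 40.9 in the cochlear pair, so it also had vestibular 2 above vestibular 1. Aqp5 had 1.72 and 0.771 against 35.5 and 73.4. Of the 8 other members compared, Lum was the nearest to Epyc, at 3.60, and Aspn the farthest, at 4.97. With 4 libraries many genes can share a profile, so this is a description of likeness only.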

How the data were processed

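Per the labels' protocols, TRIzol was used to extract RNA, and libraries came from Illumina's TruSeq stranded mRNA kit. The authors deposited FPKM, 1 value per gene symbol and library, per the file headers. The submitters' processing notes name Cuffdiff 2.2.1, TopHat2 2.1.1, SAMtools 0.1.18 and Bowtie2 2.2.8, and the mm10 build. For settings, annotation, strand and the scaling between libraries, nothing is given in the sources used here. FPKM depends on the transcript model, and Rpl26, a ribosomal protein gene, had a listed value of 0 in every library, so a 0 can be a failed estimate.

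Fragment numbers are unknown, and counting intervals are therefore left out. Ratios of short noncoding RNA genes repeated most often at 0.899, 0.882 and 0.861 for vestibular 2, cochlear 1 and cochlear 2 over vestibular 1 (7, 5 and 8 of 30, 30 and 34 genes, tolerance 0.1%), which gives the relative worth of 1 fragment only roughly.

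Genes averaging at least 1 FPKM were compared as log2(FPKM + 1), a scale that understates differences of low genes, with limma 3.58.1 in R 4.3.3 (mean-variance trend, 2-sided, Benjamini-Hochberg over 13200 genes). The members, the 24 lists (the 10 genes, their relatives, partners and markers, under current symbols, with Impad1 and Lect1 read for Bpnt2 and Cnmd) and the motifs were chosen with earlier results of these data known. The text names all members, their 8 relatives, up to 4 genes per list by mean FPKM, and the 5 genes most like Epyc; others, such as Gm10754 and Cenpp, were chosen after their values were seen.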

Additional observations from a re-analysis of the deposited data

How the results depend on the processing

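Over 10 alternatives, the 10 genes gave 100 log2 differences, of which 96 kept their direction and 0 passed the adjusted limma threshold (smallest adjusted p 0.106). The 4 that turned sign came from leaving out a library, where Prelp ran from -0.43 to 1.90 and Ogn from -0.053 to 0.89. A lone library in these fits was assumed to vary like the other group. Epyc ran from -8.01 to -4.37 with a library left out and from -6.61 to -6.17 under the other settings. The count of genes past the threshold, 4, was 2 with no filter on low values and 0 to 0 with a library left out. The replicate number is not said to pair libraries, and deviations of same-numbered libraries had a correlation of 0.0432 across genes. With the replicate block the count was 0, with 1887 genes at an unadjusted p under 0.05 against 2398, and Epyc had an adjusted p of 0.280. The block gave 6 members an unadjusted p under 0.05 (Dcn, Bgn, Aspn, Omd, Epyc and Ogn) against 14.3% of genes, in place of 3, and Fmod was not among them (p 0.0626). The cause was not tested. The count of members whose groups do not overlap, 5, ran from 6 to 9 with a library left out, an alternative chosen after seeing the data, since fewer libraries separate more easily. Depth is unknown, which limits what can be said of Chad, Kera and other genes under 1 FPKM.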

Other observations

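Lect1, the chondromodulin gene of cartilage, lay on the same side as Epyc and against the collagens of its own list. It had 327 and 853 FPKM in cochlear libraries 1 and 2 and 123 and 33.7 in vestibular libraries 1 and 2 (log2 difference -3.02, limma adjusted p 0.230). Its relative Tnmd, a tendon gene, lay on the other side, at 30.7 and 145 FPKM in the vestibular pair and 1.90 and 0.242 in the cochlear pair (log2 difference 5.16, limma adjusted p 0.157). Neither passed the adjusted threshold, and both were singled out after their values were seen. Aggrecan (Acan), the main proteoglycan of cartilage, stood at 2.23 and 7.52 FPKM in vestibular and at 0.387 in cochlear 1, and was listed at 0 in cochlear 2. Hapln1, Matn1, Matn3 and Comp, other genes of cartilage matrix, stayed under 1 FPKM in all 4 libraries, although Col2a1 reached 2365 FPKM in vestibular 2.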
